A study of Gossypium hirsutum with 51 samples.

Results

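Ovules of wild-type upland cotton (Gossypium hirsutum) collected on the day of flowering were compared directly with wild-type ovules collected 3 days later, on 6 of the 51 cDNA arrays of the series. The 6 arrays are those titled for age 0 against age +3, ages being days post anthesis, and form 3 sets, each a forward array and the swap of its dyes. On the forward array of a set the RNA of age 0 carried Cy5 and that of age +3 carried Cy3, and the swap exchanged the dyes. The series also compared wild type of ages -3, +5, +10, +15 and +20 with wild type of age +3, and wild type with the fl mutant at +3 and +10. In 3 further arrays, wild-type RNA of age +3 was hybridised against itself. The labels name whole ovules and total RNA, and for fl give no more than the name of the mutant. A set counts as 1 replicate, since biological independence of the samples is stated in the design text. All values are log2 ratios written as age 0 minus age +3 unless said otherwise, and a clone was called changed at a limma adjusted p under 0.05.

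Cotton fibres are single cells that grow out of the outer layer of the ovule. They bulge from the ovule surface around the day the flower opens and then elongate, and later lay down a thick cellulose wall. RNA from a whole ovule mixes these cells with the rest of the seed coat and the tissues inside it, so in these arrays fewer cells of a type and less RNA per cell cannot be told apart. The array carries cDNA clones known here only by clone names of the form CM005H11, in which the digits after CM were read as the plate and the rest as the well. No gene could be named for a clone, and the tissue could therefore not be checked against marker genes. Several clones may stem from 1 gene.

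Ovules on the day of flowering differed from ovules of +3 most strongly in clones that were lower at 0. Of 11664 clones tested, 269 were called and at least 2-fold lower at 0, which is 2.31%, and 115 were called and at least 2-fold higher, which is 0.986%. At 4-fold or more the counts were 24 lower and 10 higher, and at 8-fold or more 5 lower and 1 higher. All 269 lower clones and 113 of the 115 higher clones had 1 sign on all 6 arrays. They exceeded 2-fold on every one of the 6 arrays in 152 and 54 clones. Of all 11589 clones with all 6 arrays, 5480 had 1 sign, which is 47.3%. The 2 lists were chosen by their mean on these same arrays, so their agreement in sign is largely built in. A clone that lacks an array cannot be counted as having 1 sign on all 6, as CM002B08, which had no mean for set 2. The clones that were lower at 0 nearly all read above fl in wild type at +10, as described below.

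Differences of any size were called for 6440 clones, which is 55.2% of those tested, with 3685 higher and 2755 lower at 0. Most were small, and 2317 of the 6440 were under 0.25 in size. A further 2659 lay between 0.25 and 0.5, and 1080 between 0.5 and 1, of which 644 were lower and 436 higher. The median clone stood at 0.04, and centring each array on its clone median gave 3019 higher and 3156 lower, so the direction of the smallest differences is not settled. The count rests on a small spread between sets, with a median SD of 0.0845 over sets, and was 3339 when 1 spread per clone was taken from all 8 comparisons and 2117 with an ordinary t without moderation. The 2-fold counts were 114 higher and 268 lower in the first of these fits and 82 and 235 in the second.

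**Figure D1:**
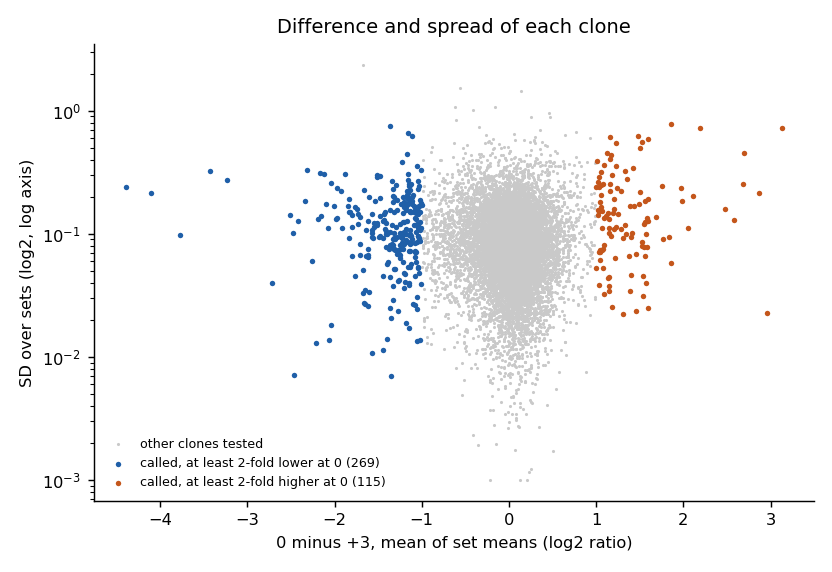
Each point is 1 clone; the horizontal axis is the mean of the set means, 0 minus +3 (log2 ratio), and the vertical axis is the SD over sets on a log scale, the very lowest drawn at the axis floor. The 269 clones called at least 2-fold lower reach further from 0 than the 115 called at least 2-fold higher. An SD above 0.5 is seen in 8 of the higher and 3 of the lower clones.

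The arrays agreed closely. Across clones, the 15 correlations between the 6 arrays ran from 0.74 to 0.84 and those between set means from 0.90 to 0.92. Between 11656 and 11662 clones were measured per array. The 2 arrays of a set, which hold the same pair of RNAs, were no closer to each other than to the arrays of other sets, with a consensus correlation of 0.012. The SD over sets thus held little measurable spread between samples beyond that between arrays. In the self-to-self arrays, centred on their medians, 0.437%, 1.23% and 0.498% of the clones were 2-fold or more from 0. None of the 269 lower clones passed 2-fold in any self-to-self array, and of the 115 higher clones 6 did so in set 2 and none in sets 1 and 3.

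The direction of the ratios rests on the labels. A control spot named HEX read between -11.7 and -10.5 on the forward arrays and between 10.8 and 12.1 on the swaps, as it does in the other comparisons, where forward arrays read negative and swaps positive. The dye effect of each clone, taken as the mean of the forward value and the swap value with its sign turned, correlated across clones with the self-to-self arrays of sets 1 and 3 at 0.24 to 0.32. Both measures concern the dyes and cannot tell which RNA is in the numerator, which was taken from the titles. The design text states the dyes, so the direction was kept. Across clones, the forward arrays of age 0 correlated at -0.36 with those of +5 and at -0.34 with those of +10, all against +3. With those of -3 the correlation was 0.57. All these comparisons share age +3, and what the correlations say about the direction was not tested.

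Control spots Y5 to Y8, whose contents the sources used here do not give, had the opposite sign here from the comparisons of the other ages with +3. Written as +3 over the other age, Y6 averaged between 2.45 and 3.88 in the comparisons with -3, +5, +10, +15 and +20, but -4.11 in the comparison with 0, where its 6 arrays ran from -4.34 to -3.88. Y5 averaged between -3.72 and -2.43 in those 5 comparisons and 3.31 with 0. Y7 and Y8 changed sign in the same way, at 1.46 and -2.04 with 0 against averages of -2.80 to -0.71 and of 0.22 to 2.19. In the self-to-self arrays all 4 spots lay between -0.20 and 0.49. The comparisons of wild type with fl also differed from each other, with Y6, as wild type over fl, at 2.71 at +3 and -4.60 at +10. Y5 read -3.91 and 1.70, Y7 -2.27 and 0.18, and Y8 0.65 and -2.84. Wild type of +10 thus read below fl of +10 for Y6, as it read below wild type of +3. The direction of the fl comparisons rests on the labels too. Whether this concerns those spots alone or also the clones was not tested, and if the clone ratios of age 0 run the other way, every "higher" and "lower" at 0 against +3 exchanges places here and below, and the differences between 0 and -3 take the other values given with them.

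**Figure D2:**
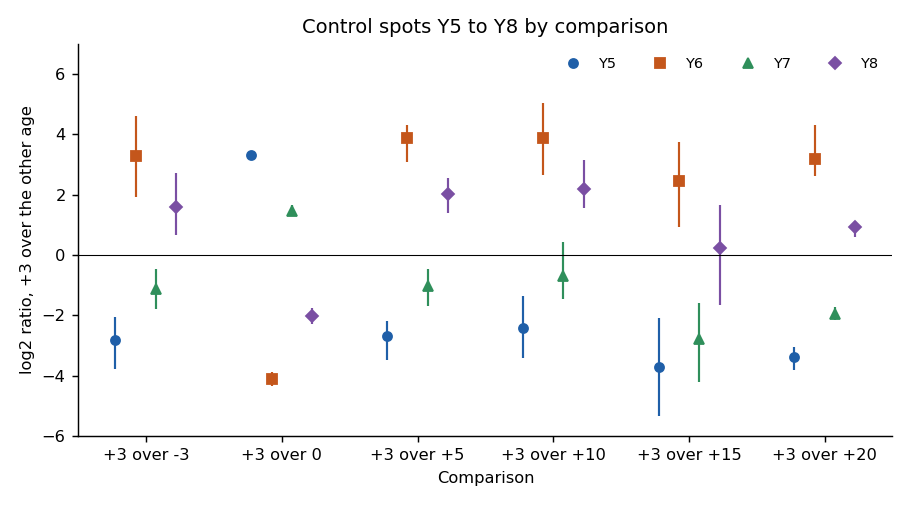
Mean log2 ratio of the control spots Y5, Y6, Y7 and Y8 in the 6 comparisons of wild-type ages, written as +3 over the other age; lines run from the lowest to the highest array. Each spot lies on the opposite side of 0 in the comparison with age 0, where Y6 averaged -4.11, from its mean in the other 5.

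The clone furthest below +3 at the day of flowering was CM005H11. It was 20.9-fold lower, at -4.39 ± 0.24 (log2, SD, n = 3 sets; limma adjusted p = 1.38e-06), with set means of -4.58, -4.12 and -4.46 and single arrays from -4.85 to -4.04. CM025A04 was 17.1-fold lower at -4.10 ± 0.21, with set means of -4.22, -3.85 and -4.22. These values stand far outside the self-to-self arrays, in which CM005H11 read 0.06, -0.39 and -0.05 and CM025A04 read 0.20, -0.37 and 0.25. CM056G01 was 13.7-fold lower at -3.77 ± 0.10, CM032F06 10.8-fold lower at -3.43 ± 0.32 and CM012A02 9.40-fold lower at -3.23 ± 0.27 (SD, n = 3 each). No array of these 5 clones read above -2.88.

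The other 7 of the 12 lowest clones lay within 1 log2 unit of each other. CM011H07 stood at -2.71 ± 0.04 and CM008G07 at -2.47 ± 0.01, the 2 with the closest agreement between sets, at -2.76, -2.71 and -2.68 and at -2.47, -2.48 and -2.46. CM005F03 was at -2.51 ± 0.14, CM003F06 at -2.48 ± 0.10 and CM014B05 at -2.41 ± 0.13. CM079H06 and CM106A10 followed at -2.34 ± 0.19 and -2.32 ± 0.33 (SD, n = 3 each). Over the 12 clones the fold ran from 4.99 to 20.9 and the adjusted p from 7.33e-07 to 1.27e-05. Their values in the self-to-self arrays ran from -0.49 to 0.66, and the array nearest to 0 in this comparison read -1.84.

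**Figure D3:**
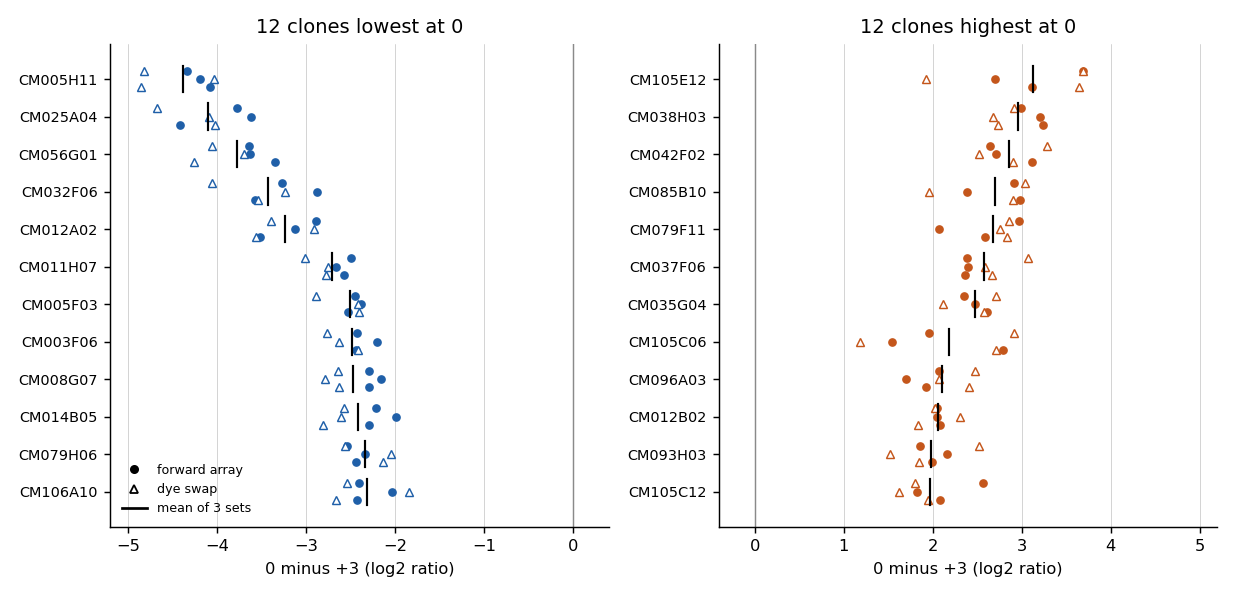
Log2 ratio, 0 minus +3, of the 12 clones with the lowest and the 12 with the highest mean among called clones with 1 sign on all 6 arrays; filled circles are forward arrays, open triangles dye swaps, each clone has 3 of both, and the black bar is the mean of the 3 sets. Every array lies on the same side of 0 for a clone, and the triangle of set 2 of CM105E12, at 1.93, is far below its other arrays.

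The highest clones at flowering were less even between sets. CM105E12 was 8.74-fold higher at 3.13 ± 0.72 (SD, n = 3; limma adjusted p = 7.45e-05), with set means of 3.69, 2.31 and 3.38. CM038H03 was 7.80-fold higher at 2.96 ± 0.02, with set means of 2.96, 2.95 and 2.99. Of the 2, CM038H03 thus has the lower mean but much the closer sets. CM042F02 stood at 2.86 ± 0.22, CM085B10 at 2.70 ± 0.45 and CM079F11 at 2.68 ± 0.25 (SD, n = 3 each). Set 2 gave the lowest value in all 3 of these, with 2.61, 2.17 and 2.41.

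The remaining 7 of the 12 highest clones were CM037F06 at 2.58 ± 0.13, CM035G04 at 2.48 ± 0.16, CM105C06 at 2.18 ± 0.73, CM096A03 at 2.11 ± 0.20, CM012B02 at 2.06 ± 0.11, CM093H03 at 1.99 ± 0.18 and CM105C12 at 1.97 ± 0.23 (SD, n = 3 each). Their folds thus ended at 3.93, below the 4.99 of the last of the 12 lowest. The adjusted p of the 12 highest ran from 7.33e-07 to 0.000365. In the self-to-self arrays they read between -0.45 and 0.64. Over all 115 higher clones the median SD over sets was 0.14, against 0.11 over the 269 lower ones. An SD over 0.5 was found in 3 lower clones and in 8 higher ones. In 7 of these 8 set 2 was the lowest, and in 6 set 1 was the highest, as in CM101F09 with 2.61, 1.06 and 1.88. With an ordinary t without moderation, CM105E12, CM085B10 and CM105C06 were no longer called, at adjusted p of 0.0644, 0.0501 and 0.0908.

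Higher clones were measured less often in the rest of the series. Of all clones tested at 0, 71.4% had at least 2 complete sets in all 8 comparisons, against 93.3% of the lower clones, which is 251 of 269, and 47.8% of the higher ones, which is 55 of 115. The arrays of 0 against +3 hold between 20 and 26 exact zeros, read as missing, and measured nearly every clone, while the other 42 arrays of different RNAs measured between 7639 and 11577 clones. Control spots named NC and Blank have a value on all 6 arrays, and among the 42 others NC has 1 value and Blank none. On the 6 arrays NC ran from -1.11 to 4.48 and Blank from -0.59 to 3.88. Spot brightness was not analysed here, and the part of dim spots in the higher clones was not tested. Among the 8326 clones with 2 or more sets in all comparisons, 55 were at least 2-fold higher and 251 at least 2-fold lower.

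The clones changed at 0 came from many clone plates, but the lower ones were not evenly spread. The 269 lower clones came from 90 of the 124 plates, with at most 9 on a plate, and the 115 higher ones from 72 plates, with at most 6. Those 6 are on plate 105, and 4 of them, CM105C04, CM105C06, CM105C09 and CM105C12, are in row C. The median of that row was 0.31 over 12 clones, against 0.08 over the other 84 clones of the plate. Plate medians over all clones ran from -0.14 to 0.17, which is small beside a 2-fold difference. Lower clones were more frequent on plates with low numbers. Of plates 1 to 63 only plate 16 held none, while none of plates 86 to 92 held any. What lies behind this was not tested.

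At most other ages the lower clones lay on 1 side of +3. Each age was hybridised against +3, so the comparisons share that age and an error in it moves all of them; the values are therefore set side by side without a test. The 269 lower clones had a median of -1.70 at -3, over 263 measured, and of -1.27 at 0. At +5 the median was 0.89, at +10 it was 1.03, and at +15 and +20 it was 0.44 at both, over 258 to 266 clones measured. The middle 80% of the clones lay between 0.51 and 1.57 at +5, between 0.64 and 1.50 at +10, between -0.23 and 0.94 at +15, thus on both sides of 0, and between 0.03 and 1.04 at +20. Medians over all clones tested at 0 stayed between -0.05 and 0.04 at every age.

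The higher clones lay on both sides of +3 at the later ages. Their median was 0.71 at -3, over 95 of 115 measured, and 1.28 at 0. It was -0.23 at +5, over 72 measured, -0.18 at +10, 0.31 at +15 and 0.07 at +20. The middle 80% ran from -1.36 to 0.67 at +5, from -1.68 to 0.98 at +10, from -1.75 to 1.85 at +15 and from -1.57 to 1.39 at +20.

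**Figure D4:**
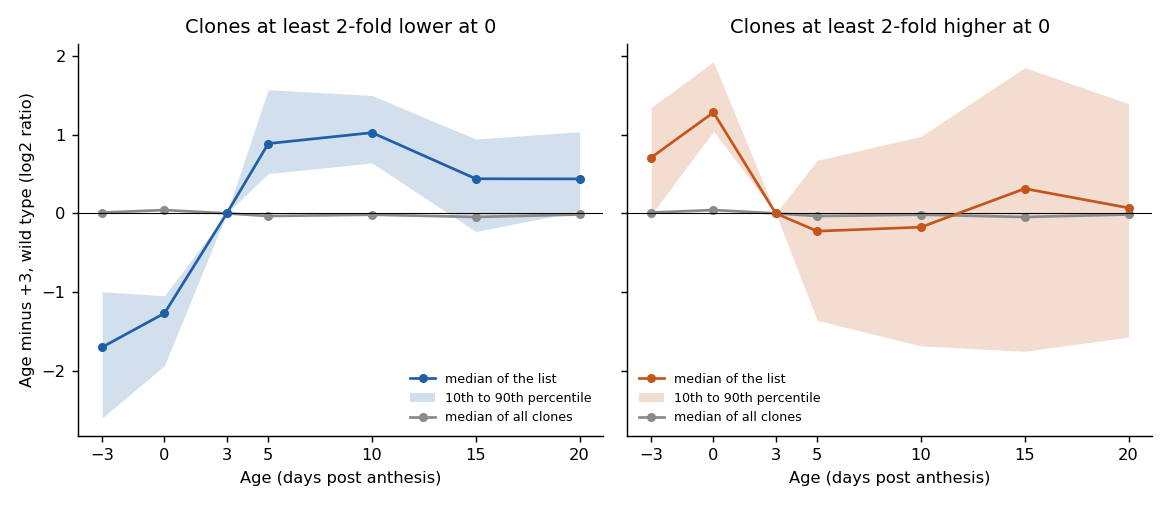
Median log2 ratio, age minus +3 in wild type, against age in days post anthesis for the clones at least 2-fold lower at 0 (left) and at least 2-fold higher at 0 (right); the band runs from the 10th to the 90th percentile, the grey line is the median of all clones tested at 0, and +3 is 0 by construction. The lower clones run from -1.70 at -3 to 1.03 at +10, while the band of the higher clones spans both sides of 0 from +5 on.

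Among the clones furthest below +3, 3 kinds of course were seen, and the grouping was made after their values had been seen. CM005H11, CM025A04 and CM056G01 were at -3.64, -3.38 and -3.15 at -3, near 1 at +10 with 1.02, 1.12 and 1.13, slightly below +3 at +15 with -0.37, -0.28 and -0.42, and above it again at +20 with 0.96, 0.94 and 0.90. CM011H07, CM003F06, CM008G07 and CM014B05 were at -2.50, -2.77, -2.38 and -2.64 at -3, and stayed above +3 at +15, with 0.78, 0.79, 0.74 and 0.63. CM079H06 stood apart from both, at -3.45 ± 1.43 at +15 and -4.00 ± 0.32 at +20 (SD, n = 3 each). Of the 12 lowest clones it had by far the lowest values at those ages. CM032F06 ran like the first kind, with 0.87 at +10, -0.39 at +15 and 0.85 at +20. CM106A10 stayed above +3 at +15 like the second, with 0.61. CM012A02 and CM005F03 lay between these kinds at +15, with -0.01 and -0.18, so the kinds are not sharply divided.

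The highest clones are known at few other ages. CM105E12, CM079F11, CM105C06 and CM093H03 had no complete set at +5, +10 or +20 and 1 at -3 and at +15. CM038H03 was at 1.48 ± 0.46 at -3 and 2.36 ± 1.53 at +15 (SD, n = 2 each). CM042F02, at 2.86 on the day of flowering, was at 1.27 ± 0.24 at +10 (n = 2), 3.17 ± 0.83 at +15 and 2.14 ± 0.42 at +20 (SD, n = 3 each). CM035G04 and CM096A03 are the 2 of the 12 highest with at least 2 sets at every age. CM035G04 went from 1.35 at -3 to 2.48 at 0 and lay between 0.23 and 0.88 at the later ages, and CM096A03 from 0.96 to 2.11 and then between -0.27 and 0.84.

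Whether the day of flowering differed from 3 days earlier was tested as the difference between the comparisons of 0 and of -3, each against +3. Of 10677 clones tested, 1903 differed, which is 17.8%, with 1292 (12.1%) higher and 611 (5.72%) lower at 0 than at -3. Of 263 lower clones tested, 88 were higher at 0 than at -3, 17 were lower and 158 did not pass the test, with a median of 0.30. Of 95 higher clones tested, 57 were higher at 0 than at -3, 1 was lower and 37 did not pass, with a median of 0.65. The median over all clones was 0.05. Both lists were chosen by their values at 0 against +3, which also enter this difference. That choice by itself pulls the higher list up and the lower list down, so the counts for the lists are partly built in. With the ratios of 0 turned, all 263 would be higher at 0 than at -3, with a median of 2.94, and all 95 lower, with a median of -2.0005, so these counts hold only for the direction of the titles. The arrays of -3 are not centred, with set medians of -0.26 to 0.20, and centring all arrays gave 2114 higher and 1704 lower. Without set 1 of both comparisons 380 clones differed, without set 2 2547 and without set 3 1222.

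In the direction of the titles, and among clones at least 2-fold from +3 at flowering, the largest differences between 0 and -3 belonged to clones that were further below +3 at -3 than at 0. CM123E12 read -4.57 ± 0.04 at -3 and -1.43 ± 0.13 at 0, and CM005F03 -5.42 ± 0.53 and -2.51 ± 0.14 (SD, n = 3 each). The differences were 3.14 and 2.90 (limma adjusted p = 5.81e-10 and 8.66e-08). CM004E11 went from -4.20 ± 0.09 to -1.30 ± 0.09 and CM019C07 from -3.84 ± 0.16 to -1.13 ± 0.07 (SD, n = 3 each). All 3 sets at 0 lay above all 3 sets at -3 in each of these 4 clones. Centring, scaling and leaving out a set kept the call and sign of each. The 4 were picked as the most positive called differences, so separated sets and kept calls were likely beforehand. If the ratios of age 0 are turned, the order changes, and CM005H11, CM005F03, CM025A04 and CM056G01 lead with 8.03, 7.93, 7.48 and 6.92, ahead of CM123E12 with 6.01.

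In the opposite direction, CM005H11, CM025A04 and CM056G01 were lower at 0 than at -3, with differences of -0.74, -0.72 and -0.62 (limma adjusted p = 0.00338, 0.00343 and 0.00513). The largest such differences, among clones at least 2-fold from +3 at flowering, were those of CM108C09, CM108C08, CM108C05 and CM074D10. CM108C09 was at 0.52 ± 0.24 at -3 and -1.0002 ± 0.17 at 0, CM108C08 at 0.12 ± 0.06 and -1.19 ± 0.04, and CM108C05 at 0.04 ± 0.26 and -1.20 ± 0.08 (SD, n = 3 each). They lie in 1 row of plate 108, where the other 8 clones tested at 0 ran from -0.08 to 1.04, and they are the only 2-fold lower clones among the 93 tested on that plate. CM108C08 and CM108C09 are adjacent wells. The part of the plate row in these values was not tested. At +5 the 3 read 0.16, -0.06 (n = 2 each) and 0.52 (n = 1), and at +10 they read 0.49, -0.14 and -0.01 (n = 2 each). Wild type minus fl at +10 was 1.99, 2.11 and 2.43 (n = 3 each). CM074D10 went from -0.54 ± 0.12 at -3 to -1.47 ± 0.20 at 0. None of these 7 clones is lower at 0 than at -3 if the ratios of 0 are turned, when CM108C09 differs by 0.48, CM108C08 by 1.08, CM108C05 by 1.16 and CM074D10 by 2.01.

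The comparison of wild type with fl at +10 shares neither age with that of 0 and +3 and so was a separate measure of the same clones. Of 265 lower clones tested there, 261 were higher in wild type, which is 98.5%. Of all 9199 clones tested, 67.2% were called in either direction, 26.5% higher and 40.7% lower. The 261 include 255 with at least 2-fold. The median of the 265 was 2.26, and the set medians were 2.14, 2.18 and 2.53, against -0.14 over all clones tested at 0 and at +10. The 4 others were CM101H12, for which wild type minus fl was -1.07 ± 0.07 and passed the test (SD, n = 3 sets; adjusted p = 0.000101 in limma), and CM007D12, CM017F08 and CM042H03, whose means of 0.58, 0.97 and 0.77 did not pass the test. Those 3 varied widely between sets, with SDs of 1.23, 1.77 and 0.84. They are named because they are the exceptions, after their values had been seen.

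Higher clones leaned the other way, less completely. Of 70 tested at +10, 52 lay below fl in wild type, which is 74.3%, 11 were higher and 7 did not pass the test, and the median was -0.87. The other 45 of the 115 were not measured often enough. Centring each array raised the share of all clones called higher in wild type to 32.3% and lowered that called lower to 28.4%. With centring 44 of 64 higher clones were lower in wild type, with a median of -0.74, and 286 of 289 lower clones were higher. Without set 1, 32 of 45 higher clones were lower in wild type.

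The median genotype difference fell from each band of the difference at flowering to the next. Clones at -2 or below at 0 had a median wild type minus fl of 3.41 at +10, and all 24 were called higher in wild type. The median was 2.19 for 241 clones between -2 and -1, 1.10 for 576 between -1 and -0.5, and 0.39 for 858 between -0.5 and -0.25. In these bands 98.3%, 87.0% and 59.1% were called higher in wild type. The 2 bands next to 0 had medians of -0.01 and -0.26, and clones above 0.25 had medians of -0.40, -0.47 and -0.87. In the bands above 0.25, 67.3%, 69.8% and 74.3% were called lower in wild type. The shares called higher there did not fall, at 6.5%, 7.1% and 15.7%. In the highest band 45 of 115 clones were not tested. Clones are not independent replicates, and the bands are given as a description.

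**Figure D5:**
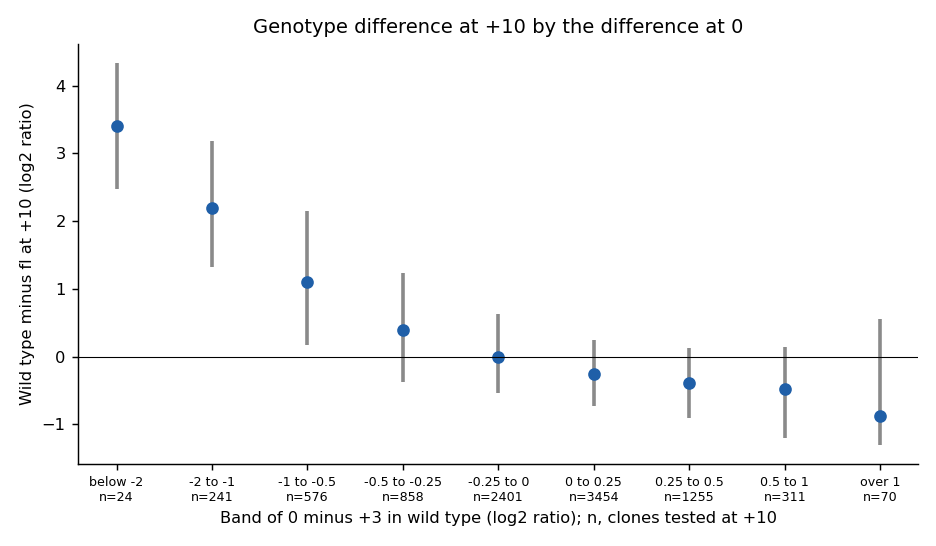
Wild type minus fl at +10 (log2 ratio) for clones in 9 bands of 0 minus +3 in wild type (log2 ratio); points are medians over the clones tested in a band, whose number stands under it, and lines run from the 10th to the 90th percentile. The median falls from 3.41 in the band lowest at 0 to -0.87 in the band highest at 0.

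Of the clones named above, all 12 of the lowest were higher in wild type at +10, while the highest were divided. CM005F03 was 46.2-fold higher at 5.53 ± 1.49, CM123E12 31.6-fold at 4.98 ± 1.15, CM033A03 24.6-fold at 4.62 ± 0.11 and CM005H11 23.6-fold at 4.56 ± 0.58 (SD over 3 sets). In limma the adjusted p of these 4 was 0.000263, 0.000151, 9.17e-06 and 2.39e-05. CM033A03 had been at -1.71 ± 0.14 at flowering (SD, n = 3). Of the 12 highest clones only 4 were tested at +10. CM038H03 and CM096A03 were lower in wild type, at -1.27 ± 0.12 (SD, n = 2) and -1.07 ± 0.17 (SD, n = 3), and CM042F02 and CM035G04 were higher, at 0.74 ± 0.54 (SD, n = 2) and 0.61 ± 0.35 (SD, n = 3).

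Among clones at least 2-fold higher at flowering and measured in 3 sets, those furthest below fl at +10 were others. CM026F08 was at 1.30 ± 0.09 at 0 and -2.21 ± 0.78 for wild type minus fl. CM103E04 was at 1.04 ± 0.07 and -1.55 ± 0.07, CM034H07 at 1.05 ± 0.07 and -1.50 ± 0.20, and CM108A08 at 1.03 ± 0.15 and -1.48 ± 0.24 (SD, n = 3 each). CM034H07 was near or below +3 at every other age, from -0.85 at +5 to -0.18 at -3 and +15. CM103E04 in contrast was above +3 at -3, 0, +10, +15 and +20, reaching 1.96 at +20.

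ACT1, SDH and TUB1 lay furthest from 0 among the 11 spots that carry gene-like names. The RefSeq table for this species gives the name ACT1 to an actin gene, a building block of the cell's filaments, and TUB1 to a protein-coding gene. Whether these spots were normalized as the clones were is not given in the sources used here. They are outside the fit, so no test was made. ACT1 read -1.31, -1.31 and -1.27 in the 3 sets, SDH -0.97, -1.003 and -1.02, and TUB1 -0.70, -0.77 and -0.69. On all 6 arrays these 3 were below 0, by more than any of their self-to-self values in size. UQCR was at -0.36 ± 0.12, and the means of the other 7 spots lay between -0.08 and 0.16. ACT2, at -0.08 ± 0.01, and TUB2, at 0.16 ± 0.05 (SD, n = 3 each), thus did not share the level of ACT1 and TUB1.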

How the data were processed

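The authors deposited 1 table of 51 arrays. Its 11706 rows hold 11682 cDNA clones, 11 spots with gene-like names and 13 controls. Per the labels each array holds 2 RNAs in Cy5 and Cy3. The deposited values were read as log2 ratios of these RNAs from their range and centring, and the authors' scanner, normalization and filters are not given in the sources used here. The array means over clones are within 0.001 of 0 in this comparison. Brightness is not in the table, so precision could be judged only by the number of sets and the spread between them.

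Exact zeros were treated as missing, and swaps, already in title order, were averaged with their forward array within a set. Clones with both arrays in at least 2 sets were fitted in limma 3.58.1 (R 4.3.3) with lmFit, eBayes and Benjamini-Hochberg adjustment over all clones, each comparison on its own sets. The moderation used a prior SD of 0.0940 with 4.72 degrees of freedom. The fit could not be run for 18 clones. The array deposited under both +5 set 3 and +10 set 2, with 19 of 19 control values equal, was left out.

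The fit was first tested on simulated data. No table used here pairs clones with genes, so the gene lists set in the design could not be applied. Clones were named by rule: the 12 lowest and 12 highest called clones with 3 full sets and 1 sign on all arrays; then, among clones called and at least 2-fold apart at 0, the 4 most extreme each way for 0 minus -3 and for wild type minus fl at +10, if called there and measured in 3 sets; and the spots with gene-like names. The comparison and the lists were chosen with earlier results of these data known.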

Additional observations from a re-analysis of the deposited data

Results flagged for a closer look

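The differences between 0 and -3 stood out by a test of the difference itself in 8 named clones. They were 3.14 for CM123E12, 2.90 for CM005F03, 2.90 for CM004E11 and 2.71 for CM019C07, and -1.52 for CM108C09, -1.31 for CM108C08, -1.24 for CM108C05 and -0.94 for CM074D10 (log2), all in the direction of the titles. With the ratios of 0 turned all 8 are above 0, from 0.48 to 7.93.

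Outside the clone rows, 8 spots read further from 0 on each of the 6 arrays of 0 against +3 than on any self-to-self array. ACT1 averaged -1.29, SDH -0.995 and TUB1 -0.72. Y5 averaged -3.31, Y6 4.11, Y7 -1.46 and Y8 2.04, with signs opposite to those in the comparisons of the other ages with +3. HEX averaged 11.1 in size, against at most 9.04 on a self-to-self array.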

How the results depend on the processing

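Of the values of named clones recomputed under the settings other than those chosen after seeing the data, 493 kept direction and call, 3 kept direction only and none was reversed. The named clones were picked as the most extreme called ones, and most settings reuse the same arrays. A kept call was therefore likely beforehand. The count of changed clones at 0 was 3339 (1683 higher, 1656 lower) in 1 fit over all 8 comparisons and 2117 (1072, 1045) without moderation. The contrast of 0 and -3 gave 3818 clones (2114, 1704) with arrays centred and 3753 (2077, 1676) with arrays also scaled, and 329 lower when all 3 sets were required. Leaving out a set gave 380 to 2547 clones, 273 to 2278 higher and 107 to 615 lower. The replicate block by set number gave 2001 clones (1353 higher, 648 lower) against 1903 without. Same-numbered sets of the 2 comparisons deviated with correlations of -0.10 to 0.01. Even the 2 arrays of a set of 0 against +3 had a consensus correlation of only 0.012. These values therefore cannot tell whether the numbers pair the samples. For the clones 2-fold higher at 0, wild type minus fl had a median of -0.74 centred, -0.73 scaled, -0.62 with plates centred and -0.94 with all 3 sets required, and leaving out a set gave 32 to 57 called lower and medians of -0.96 to -0.87. The causes were not tested.

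Alternatives chosen after seeing the data: with the ratios of 0 turned, every value of 0 minus +3 changes sign by construction, 269 clones are 2-fold higher and 115 lower, and 5325 differ from -3 (2520 higher, 2805 lower). Of the clones then lower, 11 (15.7%) read above fl in wild type (median -0.87), and of those then higher 1 (0.377%) was lower (median 2.26). Clones measured in all comparisons gave 55 at least 2-fold higher.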
